A study of Mus musculus with 8 samples.

Results

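The Foxp genes encode a family of 4 forkhead transcription factors, Foxp1, Foxp2, Foxp3 and Foxp4. Their ASH2L binding sites were taken from 1 list of 6444 sites (mm10) compiled across all samples of a ChIP-seq experiment, of which 6428 lay on the 21 assembled nuclear chromosomes. The genes were chosen by their site positions in this same list, because Foxp1 carried one of the highest numbers of separate promoter sites, so the counts of promoter sites below are descriptions and no test was made of them. A promoter site is a site whose centre lay within 1 kb of an annotated transcription start site (TSS) of the gene and inside the gene body. By this rule 6 of the 6444 sites belonged to the family, and all 6 were in Foxp1. Of all 21938 protein-coding genes, 11.4% had at least 1 such site.

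The experiment used iMEF cells, mouse embryo fibroblasts that have been immortalised. In all of them exon 4 of endogenous Ash2l had been deleted by Cre-ER, and human ASH2L with an N-terminal FKBP degradation tag and HA epitopes was supplied from a lentiviral construct. The cell lines carrying the fusion protein were grown out as single clones, so the sites describe clonal lines with a tagged human protein rather than the endogenous mouse protein. The 8 libraries comprised 2 ASH2L precipitates without dTAG, 2 after dTAG for 1 h, and 2 inputs for each of these conditions. dTAG links the FKBP tag to a ubiquitin ligase, and the comparison of both conditions asks which sites lose ASH2L upon degradation of the protein. The list gave positions only, with no value per library, so this comparison was not analysed here, no value below has a replicate error, and neither the read depth behind a site nor the labelled cell type could be examined.

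ASH2L is a core subunit of the KMT2 complexes, which methylate lysine 4 of histone H3 at promoters and enhancers. Foxp proteins share a C-terminal forkhead domain that binds DNA, and a zinc finger and leucine zipper through which they form dimers, and they act mostly as repressors. Foxp1 is broadly expressed and acts in heart, lung, lymphocyte and neuronal development. Foxp2 is best known for its part in speech and in neuronal circuits, Foxp3 specifies regulatory T cells, and Foxp4 acts in lung and gut epithelium together with Foxp1. The genes can use several promoters, and transcripts from an internal promoter of Foxp1 encode shorter proteins.

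The sequences bound by ASH2L at Foxp1 were of several kinds, and 1 example of each is printed to show their range of CpG content. All are mm10 reference sequence from RefSeq's copy of the assembly, written 5′ to 3′ on the strand of the gene, with the C and G of every CpG in capitals and with annotated exons of the gene avoided. Sites are numbered from the 5′ end of each gene. Foxp1-2 lay in the CpG island at the 5′ end of the gene (300 bases, chr6:99521684-99521983, minus strand, 24 CpGs, intronic). Foxp1-8 lay in the island of the internal group of TSSs (300 bases, chr6:99028344-99028643, minus strand, 34 CpGs). Foxp1-7 marked a single internal TSS (the whole site, chr6:99095582-99095799, minus strand, 11 CpGs). Foxp1-4 was a promoter site outside any island (the whole site, chr6:99519943-99520189, minus strand, 3 CpGs), and Foxp1-10 lay farther from a TSS in the internal cluster (the whole site, chr6:99026043-99026292, minus strand, 3 CpGs).
Foxp1-2: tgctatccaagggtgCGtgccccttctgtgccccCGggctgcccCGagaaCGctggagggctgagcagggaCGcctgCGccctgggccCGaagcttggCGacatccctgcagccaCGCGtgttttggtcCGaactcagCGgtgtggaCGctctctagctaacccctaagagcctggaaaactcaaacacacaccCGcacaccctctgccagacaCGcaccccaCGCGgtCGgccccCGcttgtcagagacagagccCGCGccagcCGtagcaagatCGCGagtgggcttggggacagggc
Foxp1-8: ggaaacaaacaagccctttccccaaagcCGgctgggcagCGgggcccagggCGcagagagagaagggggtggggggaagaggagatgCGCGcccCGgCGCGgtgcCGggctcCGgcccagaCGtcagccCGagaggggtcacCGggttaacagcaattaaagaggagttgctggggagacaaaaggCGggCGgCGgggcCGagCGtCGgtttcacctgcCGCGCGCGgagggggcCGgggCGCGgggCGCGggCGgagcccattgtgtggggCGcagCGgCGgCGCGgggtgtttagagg
Foxp1-7: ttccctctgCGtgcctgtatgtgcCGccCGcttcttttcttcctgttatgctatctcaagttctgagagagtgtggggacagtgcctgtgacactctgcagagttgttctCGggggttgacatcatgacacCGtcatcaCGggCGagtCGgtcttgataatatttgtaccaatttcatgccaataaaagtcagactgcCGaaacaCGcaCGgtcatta
Foxp1-4: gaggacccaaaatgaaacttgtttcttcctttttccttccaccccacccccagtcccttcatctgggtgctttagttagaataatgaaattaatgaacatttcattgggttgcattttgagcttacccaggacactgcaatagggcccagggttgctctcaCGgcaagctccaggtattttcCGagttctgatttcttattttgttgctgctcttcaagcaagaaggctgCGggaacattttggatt
Foxp1-10: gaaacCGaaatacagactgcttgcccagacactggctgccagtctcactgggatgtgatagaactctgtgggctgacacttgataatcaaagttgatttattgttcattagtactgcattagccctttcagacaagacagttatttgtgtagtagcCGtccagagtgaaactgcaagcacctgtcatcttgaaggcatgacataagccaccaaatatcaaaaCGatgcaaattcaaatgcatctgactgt

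Foxp1 (ENSMUSG00000030067.17) lies on the minus strand at chr6:98925338-99522721, a body of 597 kb with 31 annotated transcripts that start at 22 distinct TSSs. A total of 15 sites were centred in the gene body and 1 further site was centred 426 bp upstream of its first TSS. These 16 sites covered 7367 bp between chr6:99019289 and 99523743. Of the 15 sites in the body, 6 were promoter sites and 9 lay farther than 1 kb from every TSS of the gene. The body held 25.1 sites per Mb, whereas the whole list held 2.36 sites per Mb of the assembled chromosomes. With the upstream site Foxp1 had 7 sites within 1 kb of a TSS, and 6 of the 7 overlapped a CpG island.

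**Figure D1:**
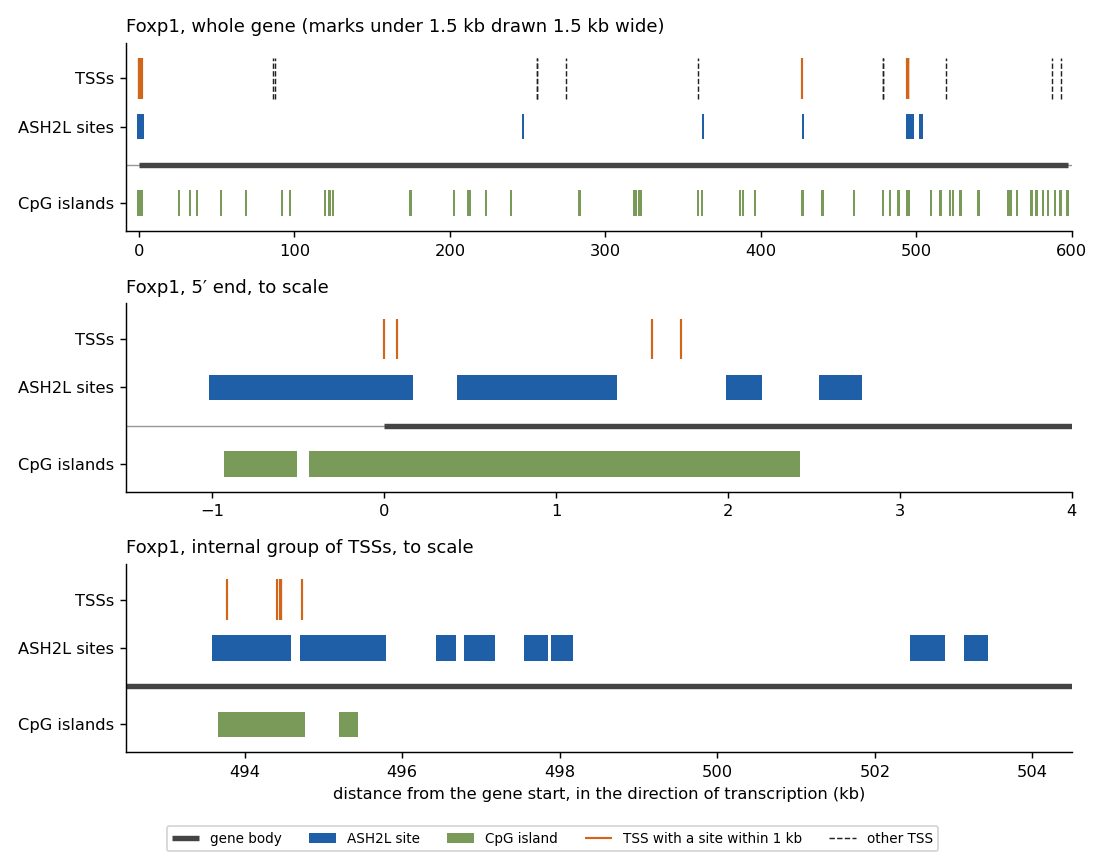
Positions along Foxp1 of annotated TSSs, ASH2L sites and CpG islands, with the distance from the gene start in kb on the horizontal axis. The upper panel shows the whole gene, and the lower panels show to scale the 4 sites at the 5′ end and the 9 sites at the internal group of TSSs, 494 to 503 kb from the gene start.

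At the 5′ end 4 sites lay within 3.8 kb and covered 67.9% of that stretch. Foxp1-1 (chr6:99522552-99523743, 1192 bp) was centred 426 bp upstream of the start of Foxp1-216 and outside the gene body, and it contained the TSSs of Foxp1-216 and Foxp1-227. Foxp1-2 (chr6:99521369-99522298, 930 bp) was centred 671 bp upstream of the TSS of Foxp1-224 and was intronic. Foxp1-3 (chr6:99520522-99520732, 211 bp) was centred 370 bp downstream of the TSS of Foxp1-220, in an exon annotated as UTR. Foxp1-4 (chr6:99519943-99520189, 247 bp) was centred 931 bp downstream of the same TSS, in the first intron. The first 3 of these sites overlapped an island of 2858 bp, and Foxp1-4 overlapped none.

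All 4 TSSs of this region, from chr6:99522721 to chr6:99520997, had a site within 1 kb, and 2 of them lay inside a site. The TSS of Foxp1-220, the only transcript of this group with a complete coding sequence, did not lie inside a site. It fell in the gap between Foxp1-2 and Foxp1-3, 265 bp from the nearer edge. The TSS of Foxp1-224 fell in the same gap, 207 bp from a site. The start of the RefSeq promoter matched to this region, at chr6:99520993, was likewise not covered, and the 300 bases around it overlapped 0 sites. RefSeq transcripts of Foxp1 start at 29 TSSs, of which only those with a matched promoter are described singly.

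The largest cluster lay inside the gene, at a group of 6 TSSs between chr6:99028942 and chr6:99027991, 494 kb downstream of the gene start. Joined at gaps of up to 15 kb, it comprised 9 sites over 9.84 kb, which covered 41.2% of that stretch. A gap of 4274 bp divided it into 6 sites and, farther downstream, 3 sites. Foxp1-8 (chr6:99028129-99029132, 1004 bp) was centred 312 bp downstream of the TSS of Foxp1-214 and contained 5 of the 6 TSSs. Foxp1-9 (chr6:99026927-99028012, 1086 bp), 116 bp farther downstream, was centred 522 bp downstream of the TSS of Foxp1-215 and contained that TSS. Every one of the 6 TSSs was thus inside a site. The start of the third matched RefSeq promoter of the gene, at chr6:99028298, lay there as well, and all 300 bases around it were inside Foxp1-8.

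The other 7 sites of the internal cluster extended only downstream. Foxp1-10 to Foxp1-13 were centred 1824, 2252, 2964 and 3303 bp downstream of the TSS of Foxp1-215, and Foxp1-14 to Foxp1-16 were centred 7837, 8059 and 8553 bp downstream of it. They were 203 to 389 bp wide, all were intronic, and none overlapped a CpG island. Foxp1-14 and Foxp1-15 were separated by 1 bp, so the number of separate sites depends on how the peak calls were divided. Foxp1-9 to Foxp1-16, 8 sites, lay wholly in the first intron of Foxp1-230 (11.5 kb, chr6:99016666-99028163), which is part of the sixth intron of Foxp1-220 (59.2 kb). No site of the gene lay 3′ of Foxp1-16.

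The remaining 3 sites of Foxp1 stood alone. Foxp1-7 (218 bp, sequence above) was centred 515 bp downstream of the TSS of Foxp1-218, 427 kb from the gene start, and overlapped an island of 236 bp. This TSS belongs to 1 transcript with an incomplete coding sequence. Foxp1-6 (chr6:99159824-99160063, 240 bp) was centred 3075 bp downstream of the TSS at chr6:99163018. Foxp1-5 (chr6:99275449-99275719, 271 bp) was centred 9052 bp upstream of the TSS at chr6:99266532. Neither of the last 2 overlapped an island.

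For the rule's limit of 1 kb, the site just inside was Foxp1-4 at 931 bp, and the sites just outside were the only site of Foxp2 at 1490 bp and Foxp1-10 at 1824 bp.

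Across the gene, 11 of the 22 TSSs had a site within 1 kb and 8 of them lay inside a site. Neighbouring TSSs share a site, and no share over all annotated TSSs is given beside these counts, so they only describe Foxp1. The TSSs formed 11 groups separated by more than 5 kb, and 3 groups held all 11 marked TSSs, namely the 5′ group, the single TSS of Foxp1-218 and the internal group of 6. An island lay within 1 kb of 15 TSSs, including all 11 with a site. TSSs without a site included the pair at chr6:99435345 and chr6:99436396, whose nearest site was 83670 bp away, and the TSS at chr6:99163018, from which 6 transcripts start. These 6 transcripts are annotated to begin at their first coding base, so this position need not be a true start of transcription. An island lay within 1 kb of the TSS at chr6:99163018, but its nearest site was Foxp1-6 at 3075 bp. That island was joined from windows of 200 bp with GC over 50% and observed to expected CpG over 0.6, and over its whole length the ratio was 0.52. When an island had to pass both limits over its whole length, 12 TSSs had one within 1 kb, including all 11 with a site.

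The marked groups differed in the proteins annotated for their transcripts. Coding transcripts of the 5′ group and of the groups at 86.3 to 360 kb shared a coding start at chr6:99163018, whereas those of the internal groups at 427 to 494 kb began their coding sequence at chr6:99016647. From the 5′ group, 1 transcript with a complete coding sequence, Foxp1-220, encodes 705 codons, and its TSS had a site. The internal group of 6 TSSs had 2 complete coding transcripts, Foxp1-225 with 577 codons and Foxp1-230 with 576, and both TSSs were inside Foxp1-8. The other 9 protein-coding transcripts with a complete coding sequence started at chr6:99435345, chr6:99266515 or chr6:99163018, had no site within 1 kb and encode 641 to 706 codons. All of these coding sequences end at chr6:98930093. Foxp1-226, a transcript annotated for nonsense-mediated decay that also starts at chr6:99163018, has 564 codons and ends earlier, at chr6:98941119. Sites were therefore present at TSSs of both long and short annotated forms. The list holds no measure of transcription, so it does not show which TSSs were in use.

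The 7 sites within 1 kb of a Foxp1 TSS fell into wide and narrow ones. Foxp1-1, Foxp1-2, Foxp1-8 and Foxp1-9 were 930 to 1192 bp wide, and Foxp1-3, Foxp1-4 and Foxp1-7 were 211 to 247 bp wide. Over the 3377 sites of the list within 1 kb of any TSS, called the promoter sites of the whole list whether or not they lay in a gene body, the median width was 304 bp (quartiles 230 and 423 bp). Of these, 2.58% were at least as wide as Foxp1-1, 3.02% as Foxp1-9, 3.44% as Foxp1-8 and 3.94% as Foxp1-2. Conversely, 84.5% were at least as wide as Foxp1-3. The 9 other sites in the body had a median width of 271 bp (range 203 to 389), beside 228 bp for the 2389 sites of the list farther than 3 kb from every TSS. The 9 include Foxp1-10 to Foxp1-12, which lay within 3 kb of a TSS, so these sets differ in distance, also for CpG content below.

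CpG content was given as the ratio of observed to expected CpGs. It was 0.78 for Foxp1-1, 0.92 for Foxp1-2, 1.07 for Foxp1-3, 0.82 for Foxp1-7 and 0.90 for Foxp1-8, and all of these lay above the lower quartile of 0.69 of promoter sites in the whole list (median 0.87). The ratio was lower in Foxp1-9 at 0.42, although this site overlapped 2 islands in part of its width, and in Foxp1-4 at 0.25. Among the 9 other sites it ranged from 0.25 to 0.81 with a GC content of 37.2 to 51.3%. The highest of these was Foxp1-5, with 8 CpGs in 271 bp at a GC content of 38.4%. Sites farther than 3 kb from a TSS had a median ratio of 0.19 (quartiles 0.10 and 0.31) in the list as a whole, and 7.20% of them overlapped an island, whereas 89.0% of promoter sites did.

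**Figure D2:**
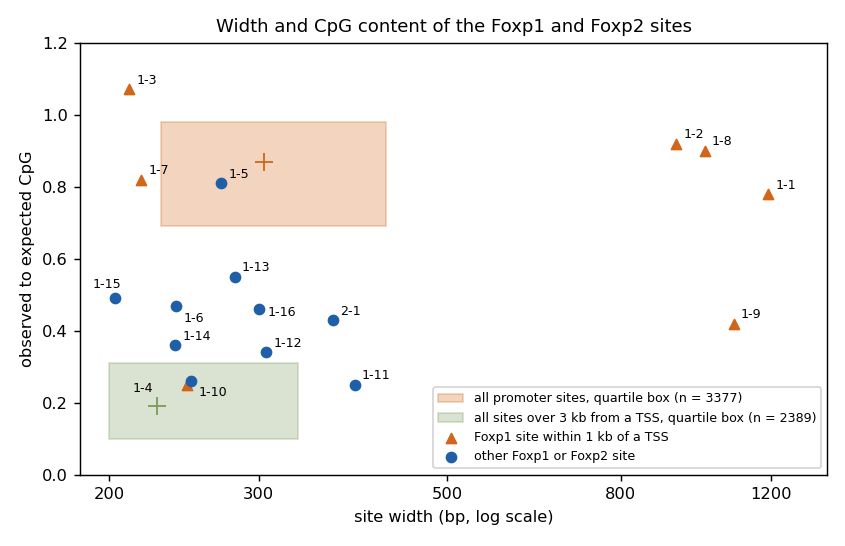
Width in bp (log scale) and observed to expected CpG ratio of the 16 Foxp1 sites and the Foxp2 site, numbered by gene and site, with the quartile ranges (boxes) and medians (crosses) of all promoter sites and of all sites over 3 kb from a TSS. Foxp1-1, Foxp1-2, Foxp1-8 and Foxp1-9 stand apart at 930 bp or more, and Foxp1-4 lies among the CpG-poor sites.

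Within Foxp1 and 5 kb on either side 55 computed islands were found, of which 5 overlapped a site. Over their whole length 26 of the 55 passed the limits, and 4 of these overlapped a site. The 5 included the island of 2858 bp at the 5′ end and the one of 1108 bp at the internal group of TSSs, and the longest island without a site measured 589 bp. The share of all computed islands with a site is not given here, so 5 of 55 is not read as low or high.

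Foxp2 (ENSMUSG00000029563.16, chr6:14901349-15441977, plus strand) has a body of 541 kb, close to that of Foxp1, and 20 transcripts with 16 TSSs, but no TSS had a site within 1 kb. Its only site, Foxp2-1 (chr6:15186870-15187236, 367 bp), was intronic and centred 1490 bp downstream of the TSS of Foxp2-210. This TSS belongs to an internal group of 4 TSSs 283 to 284 kb from the gene start, which gives rise to Foxp2-201 with 714 codons and Foxp2-205 with 739. Foxp2-1 overlapped no CpG island and had an observed to expected CpG ratio of 0.43 at 42.8% GC. At the gene start 5 of the 6 TSSs had an island within 1 kb, the longest island of the gene being 980 bp, and their nearest site was Foxp2-1, over 283 kb away. The central 300 bases of Foxp2-1 (chr6:15186903-15187202, plus strand, 7 CpGs) are printed as the single Foxp site outside Foxp1.
Foxp2-1: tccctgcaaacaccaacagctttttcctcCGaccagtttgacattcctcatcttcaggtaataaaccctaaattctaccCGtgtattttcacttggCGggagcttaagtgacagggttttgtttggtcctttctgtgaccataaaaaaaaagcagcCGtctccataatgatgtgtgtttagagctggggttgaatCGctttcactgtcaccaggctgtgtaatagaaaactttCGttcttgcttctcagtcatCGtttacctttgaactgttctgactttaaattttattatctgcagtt

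Foxp3 (ENSMUSG00000039521.13, chrX:7573644-7595245, plus strand, 21.6 kb) has 10 transcripts with 7 TSSs and had no site in its body. The nearest site, chrX:7469968-7470324, lay 103 kb upstream. Its island of 1653 bp covers the TSS at chrX:7573644 alone, and the 4 TSSs between 5.92 and 6.84 kb, from which 7 of the 10 transcripts start, had no island within 1 kb.

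Foxp4 (ENSMUSG00000023991.16, chr17:47867133-47924645, minus strand, 57.5 kb) has 8 transcripts with 8 TSSs and had no site in its body. Its nearest site, chr17:47518436-47518635, lay 349 kb away. Unlike Foxp3, 7 of its 8 TSSs had an island within 1 kb, and 5 TSSs within 0.24 kb of the gene start shared an island of 1680 bp, the longest of 22 islands in and around the gene. These 5 TSSs include those of all 4 transcripts with a complete coding sequence, of 672 to 685 codons.

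To show the contrast in base composition, the stretches upstream of the first matched RefSeq start of Foxp4 (chr17:47924646-47924882, minus strand, 26 CpGs in 237 bases) and of Foxp3 (chrX:7579426-7579566, plus strand, 1 CpG in 141 bases) are printed, with annotated exons left out. Leaving out exons enlarged the contrast. The full 250 bases upstream held 27 CpGs at Foxp4 and 6 at Foxp3. RefSeq promoters (GRCm38.p6) were matched for Foxp1, Foxp3 and Foxp4, with 3, 2 and 1 starts, and not for Foxp2. These are not all RefSeq starts, since RefSeq transcripts begin at 29 TSSs in Foxp1, 3 in Foxp2, 2 in Foxp3 and 5 in Foxp4. The observed to expected CpG ratio of the Foxp4 stretch was 0.97, and no site overlapped it. The like stretch upstream of the third matched RefSeq start of Foxp1 (235 bases, wholly inside Foxp1-8) had a ratio of 1.08.
Foxp4 RefSeq promoter 1: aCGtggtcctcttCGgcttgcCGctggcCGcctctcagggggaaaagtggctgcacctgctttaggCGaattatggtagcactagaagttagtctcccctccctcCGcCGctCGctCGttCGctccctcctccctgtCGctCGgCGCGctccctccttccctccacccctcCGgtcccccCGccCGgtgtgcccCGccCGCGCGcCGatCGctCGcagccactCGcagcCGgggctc
Foxp3 RefSeq promoter 1: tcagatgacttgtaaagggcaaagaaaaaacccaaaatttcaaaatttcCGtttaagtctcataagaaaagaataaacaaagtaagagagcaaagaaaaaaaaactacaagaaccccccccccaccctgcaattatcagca

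**Figure D3:**
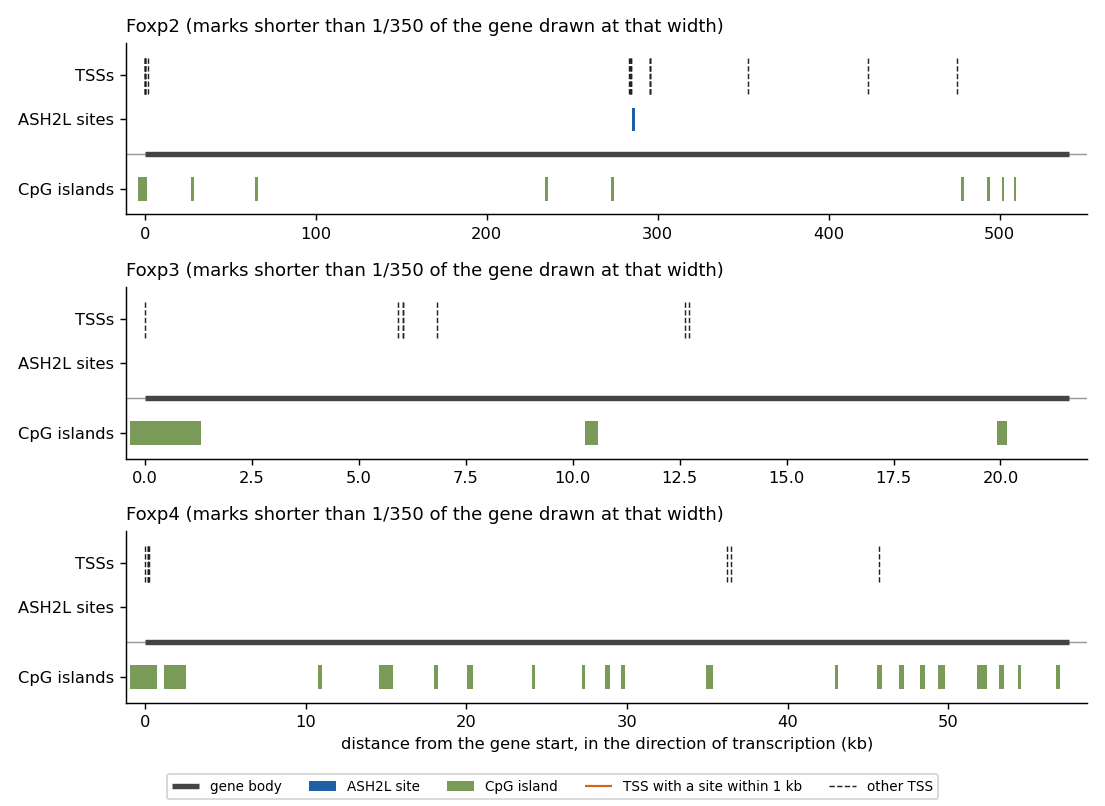
Positions of annotated TSSs, ASH2L sites and CpG islands along Foxp2, Foxp3 and Foxp4, with the distance from the gene start in kb and a separate scale for each gene. Foxp2 had 1 site, near its internal group of TSSs, and the other genes had none.

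Taking the family as a whole, 1 of the 4 genes had a promoter site, whereas 14.0% of all protein-coding genes had a site within 1 kb of a TSS inside or outside the body. All 4 genes had a CpG island within 1 kb of at least 1 TSS, and of the 16099 protein-coding genes for which this was so, 19.0% had a site. The distance from a TSS to the centre of the nearest site was 312 bp at the least in Foxp1, 1490 bp in Foxp2, 103 kb in Foxp3 and 360 kb in Foxp4. With 4 genes and 1 list, these distances are a description of the genes and not of a class.

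**Figure D4:**
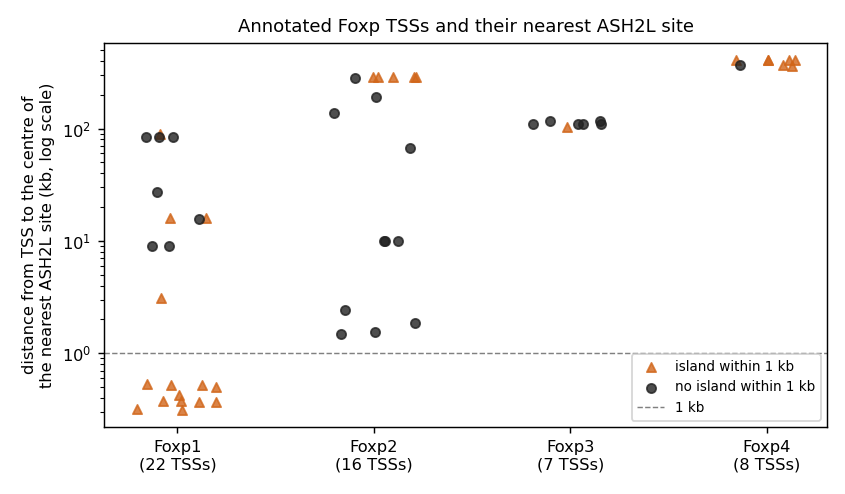
Distance in kb (log scale) from each annotated TSS of the 4 genes to the centre of the nearest ASH2L site, with triangles for TSSs that had a CpG island within 1 kb and circles for the others. The 11 points below the line at 1 kb are all Foxp1 TSSs with an island nearby, and all 8 Foxp4 TSSs lie at 360 kb or more.

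Only Tcf4, which encodes a basic helix-loop-helix factor, had more sites within 1 kb of its TSSs than the 7 of Foxp1. It had 9 sites, all in its body of 346 kb, and 31 of its 58 TSSs were marked. Pcdh7, a protocadherin gene, had 6 sites, 5 of them in its body of 415 kb, and all 7 of its TSSs were marked. Islands were overlapped by 5 of the 9 sites of Tcf4 and by 4 of the 6 sites of Pcdh7, beside 6 of 7 in Foxp1. This place in the order depended on how sites were counted. With a window of 500 bp Foxp1 had 3 sites and 7 genes had more, and when sites within 1 kb of each other were merged it had 2 and 4 genes had more, with 68 genes at 2. Of the 3078 protein-coding genes with a site, 2623 had exactly 1. Foxp1 also has many TSSs, and 70 protein-coding genes have at least 22. Of these, 30 (42.9%) had a site, 16 had at least 2 sites and 2 had at least 7, and their median was 0. Foxp1 is also long, and of the 230 genes of at least 500 kb, 30 (13.0%) had a site and 9 had at least 2.

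**Figure D5:**
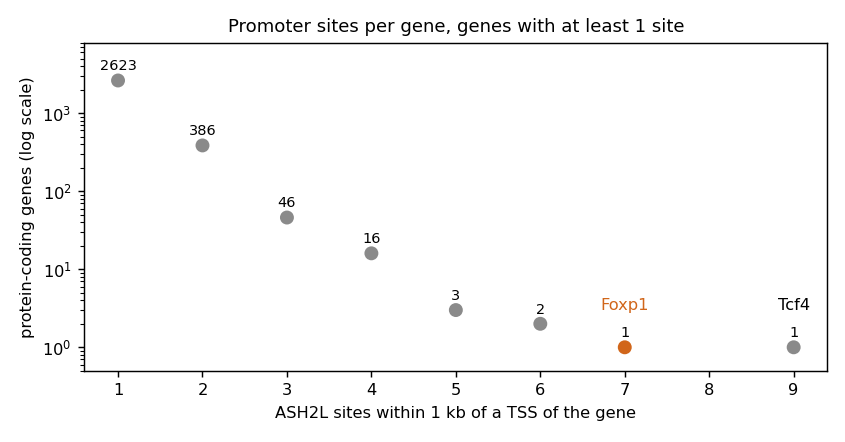
Number of protein-coding genes (log scale) by their number of ASH2L sites within 1 kb of a TSS, over the 3078 genes with at least 1 site. Foxp1 is the single gene with 7 and Tcf4 the single gene with 9.

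Runs of sites with gaps of up to 3 kb were also compared over the list, which formed 5457 runs, 587 of them of at least 2 sites. The wide sites of the internal group and the 4 sites just downstream formed a run of 6 sites over 4585 bp, and 0.495% of all runs had as many or more sites. The 3 sites farther downstream formed a run of their own over 985 bp, which 2.93% of runs equalled or exceeded in number. The 4 sites at the 5′ end formed a run that 1.34% of runs equalled or exceeded in number. Single sites made up 4870 of the 5457 runs. The run of 6 sites and the run at the 5′ end hold the promoter sites by which Foxp1 was chosen. Their shares are therefore descriptions and no test.

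Other forkhead genes were then examined for comparison, by the criterion of a site within 1 kb of a TSS whether or not it lay in the body. Of the 40 others, 5 (12.5%, Wilson 95% confidence interval 5.46 to 26.1%, counting error only) had a site, beside the 14.0% of all protein-coding genes. Each had exactly 1. Those at Foxj2 and Foxj3 were centred 95 and 99 bp upstream of a TSS and that at Foxn3 92 bp upstream. At Foxc2, which acts in mesenchyme and lymphatic vessels, a site of 626 bp was centred 749 bp upstream. The sites at Foxj2, Foxj3 and Foxn3 were 251 to 310 bp wide. The list of other forkhead genes has a median of 1 TSS per gene and a median body of 4.95 kb, and all were shorter than Foxp1. Foxn3, with 14 TSSs over 374 kb, was the longest among them and had 1 site.

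Of 18 genes for proteins known to act with Foxp factors, among them subunits of the NuRD and histone deacetylase complexes and partner transcription factors, 2 (11.1%, Wilson 95% confidence interval 3.1 to 32.8%) had a site within 1 kb of a TSS, beside 14.0% of all protein-coding genes and 19.0% of those with an island near a TSS. Rbbp4, a histone-binding subunit shared by several of these complexes, had a site of 262 bp centred 117 bp downstream of a TSS. Runx1, a partner of Foxp3 in T cells, had a site of 678 bp centred 274 bp downstream of a TSS. The other 16 had none within 1 kb, although all 18 had an island near a TSS.

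Finally, the central 200 bp of the sites were searched on both strands for 6 short motifs, each counted independently of the others. The forkhead motif TGTTTAC was in 0 of the 17 Foxp1 and Foxp2 sites listed here, beside 1.48% of promoter sites and 2.55% of sites over 3 kb from a TSS in the whole list. The AP-1 motif TGANTCA was in Foxp1-5, Foxp1-9 and Foxp1-14, beside 2.96% of promoter sites and 15.4% of distant sites. The SP/KLF motif GGGCGG was in Foxp1-6 and Foxp1-7 (45.3% and 3.31%), and the NFY motif CCAAT was in Foxp1-4 and Foxp1-7 (11.2% and 24.4%). The ETS motif CCGGAAGT (5.33% and 0.251%) and the E-box CACGTG (3.35% and 2.13%) were in none of the 17. Sites wider than 200 bp were searched only in part. The stretch of Foxp1-8 (1004 bp) printed above holds GGGCGG outside its searched window, so a count of 0 does not show that a whole site lacks a motif. These matches describe the letters in these windows and not the binding of a factor.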

How the data were processed

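ASH2L was precipitated with antibodies against the HA epitope. Per the study's methods, the authors used Trim Galore for trimming, BWA for alignment to mm10, SAMtools for filtering, Picard to merge the replicates and MACS for calling narrow peaks. The list used here gives the start and end of each site in bp, with no count, score or p-value, so no site could be ranked or tested and neither depth nor precision per sample is known. The paper also reports a list of sites that changed after dTAG, which was not used here. Starts were read as counted from 0, since the narrowest site is then 200 bp wide, and are printed counted from 1.

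TSSs and gene models came from GENCODE mouse release M21, not the release of the authors, and bases from GRCm38.p6. CpG islands were computed by joining touching or overlapping windows of 200 bp that each had GC over 50% and observed to expected CpG over 0.6. A joined island can fall below a limit over its whole length, as 50 of the 94 in and around the Foxp genes did. Each site was represented by its centre. The genes named are the Foxp genes with every site, every other forkhead gene, cofactor gene or adjoining gene with a site within 1 kb of a TSS, and Tcf4 and Pcdh7. One of the other forkhead genes with a site is not reported here by name. Members, gene lists and motifs were chosen with earlier results of these data known. Sites, TSSs and genes are not replicates. Calculations used Python 3.11.15, NumPy 2.4.6, pandas 2.3.3, SciPy 1.17.1, pysam 0.24.0 and matplotlib 3.10.9, and the site assignment was tested on simulated data. Alternatives changed the window, the TSSs, the island definition and the merging of sites.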

Additional observations from a re-analysis of the deposited data

How the results depend on the processing

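For counts above 0, 13 of 49 alternatives moved the value by more than 1.5 times. Counts of 0 stayed at 0 in 59 alternatives and rose in the 4 given here for Foxp2. The 6 Foxp1 promoter sites became 2 with a window of 500 bp, 1 with the start of the gene only, and 2 when sites within 1 kb of each other were merged. The 11 marked Foxp1 TSSs became 3 with basic transcripts only (3 of 6 TSSs, against 11 of 22), 1 with the start of the gene only and 5 with merged sites. Foxp2 gained 1 promoter site with a window of 2 kb and 1 with 3 kb, and then had 3 and 4 marked TSSs. The 5 Foxp1 promoter sites in CpG islands became 2 with merged sites and 2 with a window of 500 bp. The 5 other forkhead genes became 3 with merged sites, and the 2 cofactor genes became 1 with the start of the gene only. Foxp3 and Foxp4 stayed at 0 throughout. Some alternatives were chosen after the data were seen. Of these, RefSeq TSSs gave 6 promoter sites and 13 of 29 marked TSSs for Foxp1, islands that pass the limits over their whole length again held 5 of the Foxp1 promoter sites, and 7, 2 and 4 genes had more sites than Foxp1 with windows of 500 bp and 2 kb and with merged sites, instead of 1.

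The number of separate Foxp1 sites thus depended on how neighbouring peaks are divided and on the TSSs counted. No paired analysis was possible because the list has no column per sample, and for the same reason leaving out replicates and the alternatives for the dTAG comparison were not run. The depth that limits detection of sites at Foxp2, Foxp3 and Foxp4 is unknown, so a gene without a listed site is not shown to lack ASH2L.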

Other observations

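No gene that adjoins or overlaps a Foxp gene had a site within 1 kb of its own TSSs. The read-through gene Gm20696, which spans the 5′ part of Foxp1 and Eif4e3, contained 6 sites, among them Foxp1-1 to Foxp1-5, and Eif4e3, which lies 102 kb upstream of Foxp1, contained 1.

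The following genes were picked after their values were seen. Of the neighbouring forkhead genes Foxf1, Foxc2 and Foxl1 on chromosome 8, Foxc2 alone had a site within 1 kb of a TSS, upstream of its body. Of Foxq1, Foxf2 and Foxc1 on chromosome 13, none had one, but the body of Foxc1 (5.84 kb) held 3 sites, all more than 1 kb from its single TSS. Runx2, which encodes a regulator of osteoblast differentiation, had 6 sites within 1 kb of its 11 TSSs, as many as Pcdh7 and 1 fewer than Foxp1.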
